A study of Mus musculus with 9 samples.

Results

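The plasma proteins considered here were the 3 fibrinogen chains (Fga, Fgb and Fgg), ceruloplasmin (Cp), albumin (Alb), transthyretin (Ttr), transferrin (Trf) and the apolipoproteins Apoe, Apob and Apoh. These 10 genes, of 23282 symbols in the tables, were taken by name, and the choice rested in part on their difference between the genotypes compared here. All 10 passed the filter on low values, but Fga did so only through the knockout libraries, where it is high. Kidney RNA came from C57BL/6 mice that were either wild type, in 4 libraries, or Bmal1 knockout, in 5 libraries. Bmal1 (gene symbol Arntl) encodes the transcription factor that, with its partner Clock, drives the circadian clock, and no other allele or agent is named for either genotype. The labels do not give the animals' age or sex, the hour of sampling, the deleted part of Bmal1 or the tissues in which it was deleted. Nor do they state whether the libraries are from different animals; the p-values below therefore reflect variation among libraries, which may be technical.

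Most proteins of blood plasma are made by hepatocytes, and the kidney transcribes many of the same genes at lower levels. Fibrinogen is built from alpha, beta and gamma chains, encoded by neighbouring genes, and is cleaved by thrombin to form the fibrin clot. In the liver its genes and that of ceruloplasmin belong to the acute phase response, in which interleukin-6 acts through the transcription factor Stat3, while albumin and transthyretin are classic proteins that fall. Renal tubule cells are known to transcribe the fibrinogen genes too, more so after injury. Albumin is also a textbook target of the clock: Dbp, a clock-controlled transcription factor, was named for a D-box element of the albumin promoter.

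The promoters of the 3 fibrinogen genes and of albumin are shown because these were the 4 members with the largest differences between the genotypes, and albumin differed in the opposite direction. Sequences are from RefSeq on GRCm38.p6, 250 bases before to 50 after the annotated start, and read 5′ to 3′ along the gene. Windows of 8 of the 10 genes were searched, and the remaining members were left out of the search. Capitals mark letters that matched, on either strand, the D-box core (TTNTGTAA), the Stat3 element of acute phase promoters (CTGGGAA) or the core of the ROR element (AGGTCA). The second D-box form (TTACGTAA), the E-box (CACGTG) and the TATA box (TATAAA) were searched too and had no match in these 4 windows.
Fga, chr3:83025903-83026202, plus strand: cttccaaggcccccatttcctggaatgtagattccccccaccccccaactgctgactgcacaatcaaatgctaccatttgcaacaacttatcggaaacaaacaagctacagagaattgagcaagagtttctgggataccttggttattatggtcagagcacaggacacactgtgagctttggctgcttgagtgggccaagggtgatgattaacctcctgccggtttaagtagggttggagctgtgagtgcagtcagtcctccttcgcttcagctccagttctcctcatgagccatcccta
Fgb, chr3:83049814-83050113, minus strand: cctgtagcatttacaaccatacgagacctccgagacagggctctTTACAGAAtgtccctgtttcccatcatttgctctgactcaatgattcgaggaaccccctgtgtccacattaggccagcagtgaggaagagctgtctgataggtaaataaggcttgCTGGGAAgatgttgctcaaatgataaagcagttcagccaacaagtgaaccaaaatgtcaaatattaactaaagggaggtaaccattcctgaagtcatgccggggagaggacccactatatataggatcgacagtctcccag
Fgg, chr3:83007474-83007773, plus strand: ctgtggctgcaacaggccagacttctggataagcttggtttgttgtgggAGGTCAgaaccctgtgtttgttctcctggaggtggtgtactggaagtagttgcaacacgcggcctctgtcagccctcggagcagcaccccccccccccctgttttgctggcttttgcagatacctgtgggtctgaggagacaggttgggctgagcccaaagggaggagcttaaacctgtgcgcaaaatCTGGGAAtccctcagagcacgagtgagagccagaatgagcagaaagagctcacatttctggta
Alb, chr5:90460620-90460919, plus strand: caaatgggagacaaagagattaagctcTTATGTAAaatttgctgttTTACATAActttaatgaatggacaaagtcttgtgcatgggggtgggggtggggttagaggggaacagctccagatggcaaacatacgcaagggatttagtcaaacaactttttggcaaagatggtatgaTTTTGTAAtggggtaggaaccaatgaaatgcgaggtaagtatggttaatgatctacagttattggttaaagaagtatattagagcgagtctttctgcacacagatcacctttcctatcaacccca

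With bases counted from the start site and negative before it, the albumin window held the D-box core at -223 to -216, at -204 to -197 on the other strand, and at -75 to -68. This D-box form occurred in 4.03% of 32851 RefSeq promoter windows of the same length. Fga held no match to the motifs searched, which says only that these letters are not in its window. Fgb held the D-box core at -206 to -199 on the other strand and the Stat3 element at -91 to -85. Fgg held the Stat3 element at -13 to -7 and the ROR core at -201 to -196. The Stat3 element is short and stood in 11.1% of all windows, and the ROR core in 16.3%. No matches overlapped in these 4 windows. The 3 fibrinogen windows thus shared no motif among all of them. Of the members not shown, Apoh held the D-box core at -68 to -61 and the ROR core at -215 to -210, both on the other strand. The values of Apoh overlapped between the genotypes. Cp, Apoe and Apob matched only the TATA box. Such matches describe letters, not binding.

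The deposited values are log2(x + 1), where x behaves as a read count adjusted by the authors between libraries. Summed x ran from 11765219 to 13486444 per library, and the raw depth is unknown. Libraries were made from 3′ tags, about 1 per transcript, so levels of different genes are set side by side without a length correction. Arntl lay between 6.26 and 7.06 in wild type and between 5.65 and 5.99 in knockout libraries. A 3′ tag outside the deleted part does not check a deletion. The 45S ribosomal precursor Rn45s took 5.07% to 11.3% of the adjusted reads in wild type and 6.83% to 14.4% in knockout libraries. Globin transcripts were richest in wild type 2 and knockout 4, at 1.37% and 3.16% of the adjusted reads. Hbb-b1 and Hbb-bs had nearly the same value in every library, so these shares may count the same reads under both symbols. Of 13481 genes tested with limma at an adjusted p of 0.05, 1937 (14.4%) differed between genotypes, 831 higher (6.16%) and 1106 lower (8.2%) in the knockout.

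All 3 fibrinogen chain transcripts lay higher in every knockout library than in any wild-type library, a pattern shown by 5.86% of all genes tested. The values of this contrast took part in the choice of the genes, so differences between genotypes are described here without a test. Fgg, the gamma chain, was at 7.36, 6.91, 6.18 and 6.26 in wild types 1 to 4 and at 10.15, 9.89, 10.01, 9.51 and 9.49 in knockouts 1 to 5, on the log2(x + 1) scale. Wild types 1 and 2 were the higher wild types, knockouts 4 and 5 the lower knockouts, and the genotypes stood 2.13 apart at their nearest libraries. Its mean difference was 3.13 (SE 0.21), or 8.78-fold. Fewer cells of a type and less RNA per cell cannot be told apart in such whole-tissue libraries.

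Fga, the alpha chain, had values of 4.14, 3.10, 3.42 and 3.25 in wild types 1 to 4 and of 7.04, 6.01, 5.94, 6.41 and 6.44 in knockouts 1 to 5. The first library of each genotype was its highest, and the genotypes did not overlap. The difference was 2.89 (SE 0.32), 7.41-fold on this scale, which understates changes of genes this low: mean x was 10.6 in wild type and 84.8 in knockout libraries. In wild types 1 to 4 x was 16.68, 7.54, 9.73 and 8.51. Only wild type 1 thus reached the filter value of 10, and Fga passed the filter through the knockouts. Fgb, the beta chain, was at 6.59, 6.78, 5.92 and 5.97 in wild types 1 to 4 and at 8.33, 8.41, 8.38, 8.61 and 8.55 in knockouts 1 to 5. Its knockout libraries lay close together (SD 0.12, n = 5), those of the wild type less so (SD 0.43, n = 4), and wild types 1 and 2 again exceeded wild types 3 and 4. The difference was 2.14 (SE 0.18), or 4.4-fold.

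**Figure D1:**
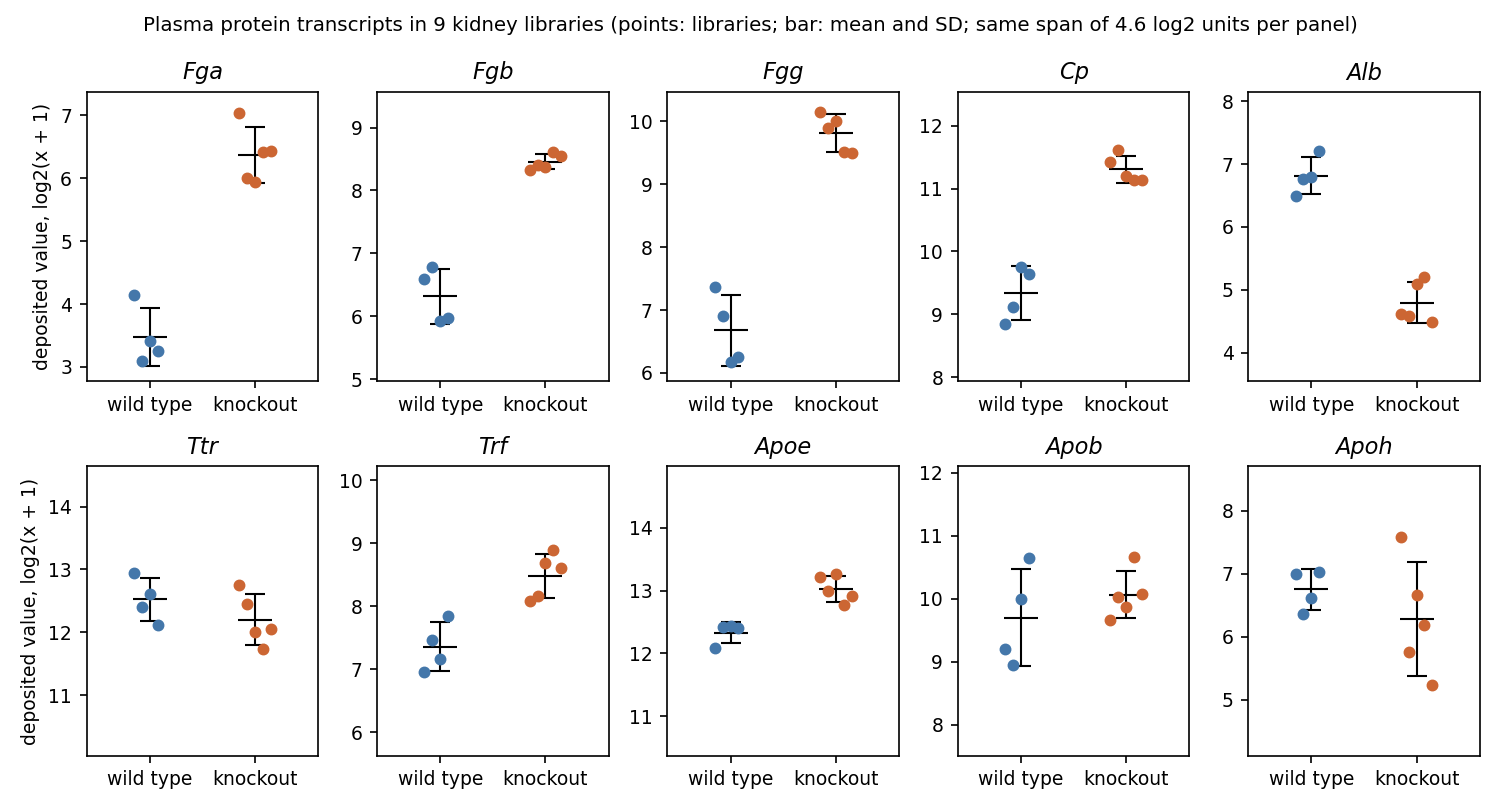
Deposited log2(x + 1) values of the 10 genes in each library, 1 point per library, with bars for the mean and SD (wild type n = 4, knockout n = 5) and axes of equal span. Fga, Fgb, Fgg, Cp, Trf and Apoe do not overlap and are higher in the knockout, Alb does not overlap and is lower, and Ttr, Apob and Apoh overlap.

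The makeup of the fibrinogen transcripts differed between libraries as well as their amount. Summed x of the 3 chains was 276, 235, 141 and 146 in wild types 1 to 4 and 1583, 1350, 1424, 1203 and 1178 in knockouts 1 to 5. Every knockout library thus held several times the summed x of any wild type. Fgg made up 53.1% ± 4.19 (SD, n = 4) of the sum in wild types against 67.2% ± 5.87 (SD, n = 5) of it in knockouts, ranging from 50.6% to 59.4% and from 60.5% to 72.5%. Fgb made up 41.4% ± 4.86 and 26.5% ± 5.33 of it, ranging from 34.6% to 46.1% in wild type and from 20.3% to 32.5% in the knockout. Neither range overlapped between genotypes, but the shares are built from the same values as the differences above and are described without a test. Fga was the smallest fraction in all 9 libraries, at 5.5% ± 1.6 in wild type and 6.29% ± 1.74 in the knockout, with overlapping ranges. The 3 chains enter the fibrinogen molecule in equal numbers, but tags count transcripts and can differ between genes in how well they are captured.

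**Figure D2:**
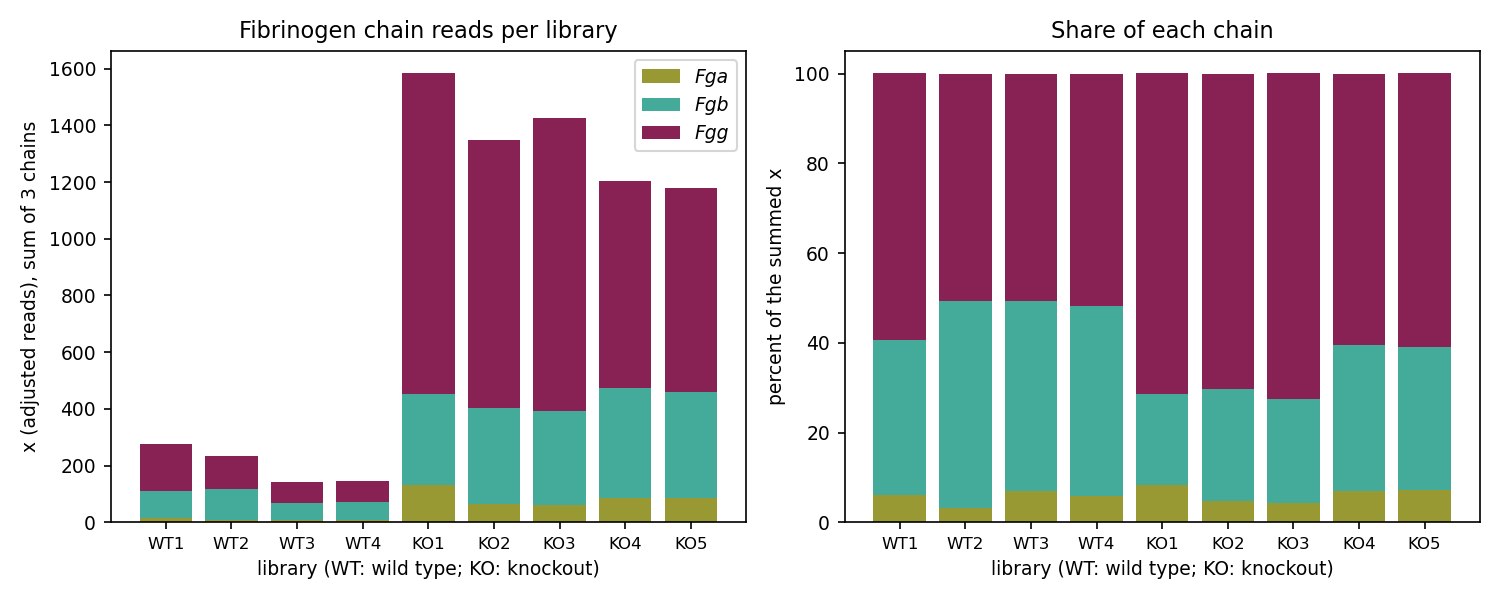
Left, x of Fga, Fgb and Fgg stacked for each library; right, the same as a percent of their sum. The sum is 141 to 276 in wild type and 1178 to 1583 in knockout libraries, and Fgg holds a larger fraction in every knockout than in any wild type.

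The 3 chain genes lie within 42.1 kb on chromosome 3 (GRCm38), Fgg at 83007724 to 83015049 and Fga at 83026076 to 83033627 on the plus strand, and Fgb at 83040141 to 83049863 on the minus strand. Exons of Fgg overlap the noncoding Gm30097 on the other strand, and strand handling is not given in the sources used here, so its reads are uncertain. Of the 3 nearest tested protein-coding genes on each side, Lrat rose and the other 5 did not pass the test. Lrat, which esterifies retinol and lies 104 kb away, rose by 0.89 (SE 0.27, limma adjusted p = 0.0376). That call was lost in 10 of 20 alternative analyses, with an adjusted p of 0.115 without wild type 4. Plrg1, a spliceosome component only 5.66 kb from Fgb, differed by 0.18 (SE 0.11, limma adjusted p = 0.295), and Rbm46, 131 kb away and low, by 1.34 (SE 0.48, limma adjusted p = 0.071). Map9, Sfrp2 and Tlr2 differed by -0.32, -0.17 and -0.18.

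Ceruloplasmin, the copper-carrying ferroxidase of plasma, was the fourth most abundant of the 10 transcripts in wild type and the third in the knockout. Cp was at 8.85, 9.11, 9.75 and 9.65 in wild types 1 to 4 and at 11.43, 11.62, 11.20, 11.14 and 11.13 in knockouts 1 to 5. Here wild types 1 and 2 were the lower pair, the reverse of Fgb and Fgg, and the genotypes lay 1.38 apart at their nearest. The difference was 1.96 (SE 0.16), or 3.9-fold, from a mean x of 669 to 2550. Cp lies on chromosome 3 at 19957054 to 20009145, plus strand, and its exons overlap those of Hps3 on the other strand. Hps3, which functions in lysosome-related organelles, itself differed by -0.07 (SE 0.18, limma adjusted p = 0.858). The next gene with higher coordinates, Hltf at 48.7 kb, differed by 0.11 (limma adjusted p = 0.63). Gyg and Pde7a also did not pass the test, while Mtfr1, Armc1 and Tbl1xr1, at 736, 794 and 2070 kb, passed it with differences of -0.39, -0.29 and -0.36. These 3 calls were lost in 10, 14 and 12 of 20 alternatives.

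Albumin, the main carrier protein of plasma, was the only member lower in every knockout library than in any wild type. Alb was at 6.49, 6.77, 6.80 and 7.20 in wild types 1 to 4 and at 4.61, 4.59, 5.09, 5.21 and 4.49 in knockouts 1 to 5. Wild type 4 was the highest and knockout 5 the lowest library, and the genotypes were 1.28 apart at their nearest. The mean difference was -2.02 (SE 0.25), a level 4.05-fold lower, with mean x falling from 113 to 27.4. In rank among the 10 genes Alb went from the sixth place in wild type to the tenth in the knockout. The gene lies on chromosome 5 at 90460897 to 90476602, plus strand. Afp and Afm, its relatives in the albumin family, are the nearest tested genes with higher coordinates. Afp, the fetal counterpart, differed by -0.15 (SE 0.44, limma adjusted p = 0.865) and afamin (Afm) by 0.51 (SE 0.17, limma adjusted p = 0.0508). None of the 6 tested neighbours passed the test.

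Transferrin, the iron carrier of plasma, was higher in the knockout by less. Trf was at 6.96, 7.47, 7.16 and 7.85 in wild types 1 to 4 and at 8.08, 8.17, 8.68, 8.89 and 8.60 in knockouts 1 to 5. The genotypes did not overlap, but wild type 4 came within 0.225 of knockout 1. The difference was 1.12 (SE 0.20), or 2.18-fold. Trf lies on chromosome 9 at 103204001 to 103230444, minus strand, and shares exon sequence with Gm20425 on the same strand, so its reads are uncertain. Transthyretin, which carries thyroxine and retinol-binding protein, was among the most abundant kidney transcripts and overlapped between the genotypes. Ttr was at 12.95, 12.41, 12.61 and 12.12 in wild types 1 to 4 and at 12.76, 12.45, 12, 11.73 and 12.06 in knockouts 1 to 5. The difference was -0.32 (SE 0.18), smaller than the SD within either genotype, 0.35 and 0.41.

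Transferrin and transthyretin moved in opposite directions from library to library. This was measured on deviations from the genotype means, which the choice of the genes did not use. Over the 9 libraries Pearson's r was -0.973 (exact permutation of libraries within genotypes, two-sided p = 0.000347, the smallest that 2880 orderings can give, and 0.0156 after Benjamini-Hochberg adjustment over the 45 pairs of members). Spearman's rho of ranks within genotypes was -1 (exact p = 0.000694, adjusted 0.0312). Without wild type 1 and knockout 1, the libraries farthest from the median of Ttr, r was -0.983. Each genotype alone has fewer than 6 libraries, so no r is given within 1 genotype. This was the only pair of 45 with an adjusted p under 0.05, and 3 pairs had an unadjusted p below it. The test was added after the values were seen. Among the other 13480 genes tested, 2 had an r with Trf at or below that of Ttr, Ttr included. The Rn45s share of a library had an r of -0.693 with Ttr (exact p = 0.0649, adjusted over 10 members 0.273) and of 0.625 with Trf (exact p = 0.103, adjusted 0.273). The corresponding rho was -0.867 and 0.867 (exact p = 0.0167 each, adjusted 0.0833). The part of the Rn45s share in the relation was not tested.

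**Figure D3:**
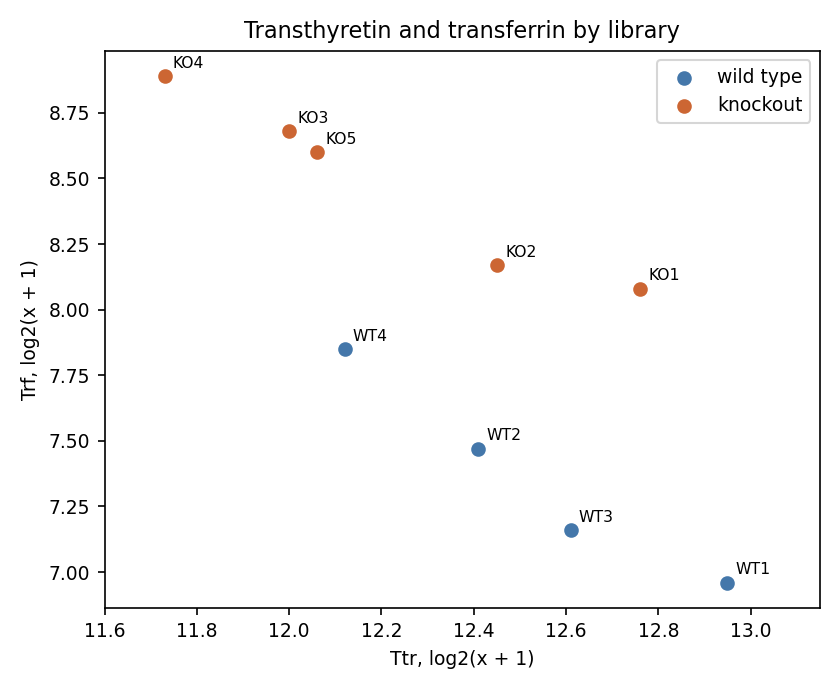
Trf against Ttr, both as deposited log2(x + 1), 1 labelled point per library (4 wild type, 5 knockout). Within each genotype a library with more Ttr has less Trf, with no exception in rank, and the knockout libraries lie above the wild types.

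Apolipoprotein E, a ligand for lipoprotein receptors, was the most abundant of the 10 transcripts in the knockout and second to Ttr in wild type, where the values of both overlapped. Apoe was at 12.08, 12.42, 12.43 and 12.40 in wild types 1 to 4 and at 13.21, 12.99, 13.27, 12.77 and 12.91 in knockouts 1 to 5. Wild type 1 stood below the other wild types, and the genotypes did not overlap. The difference was 0.70 (SE 0.12), or 1.62-fold, and in x it was the largest of all, from a mean of 5180 to 8430. Apoe lies on chromosome 7 at 19696109 to 19699188, minus strand.

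Apolipoprotein B, the structural protein of very-low-density and low-density lipoproteins, overlapped between the genotypes. Apob was at 9.20, 8.95, 10 and 10.64 in wild types 1 to 4 and at 9.66, 10.03, 9.87, 10.66 and 10.08 in knockouts 1 to 5. Wild types 1 and 2 were the lowest of the 9 libraries, and wild type 4 lay beside knockout 4, the highest. The difference of 0.36 (SE 0.26) depended on single libraries: it was 0.68 without wild type 4, and -0.04 without wild type 2 and knockout 4 together. Apoh, or beta-2-glycoprotein I, a phospholipid-binding plasma protein, was the most variable member. Apoh was at 7.0, 6.36, 6.62 and 7.03 in wild types 1 to 4 and at 7.59, 5.75, 6.67, 6.18 and 5.23 in knockouts 1 to 5. Knockout 1 was the highest and knockout 5 the lowest of the 9 libraries, an SD of 0.90 in the knockout against 0.32 in wild type, and the difference was -0.47 (SE 0.35). Apob is on chromosome 12 at 7977648 to 8016835 and Apoh on chromosome 11 at 108343354 to 108414396, both on the plus strand, and exons of Apoh overlap Prkca on the other strand.

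Of the 10 members, 6 were thus higher and 1 lower in the knockout without overlap. Over all genes tested, the shares without overlap were 5.86% higher and 8.46% lower. The members were chosen on this contrast, so nothing is read from their count. In wild type the order of mean levels was Ttr, Apoe, Apob, Cp, Trf, Alb, Apoh, Fgg, Fgb and Fga. Ttr and Apoe (12.52 ± 0.35 and 12.33 ± 0.17, SD, n = 4) differed by less than their spread, as did Apob and Cp (9.70 ± 0.77 and 9.34 ± 0.43). Alb, Apoh, Fgg and Fgb lay between 6.82 and 6.32, each within its SD of the next. In the knockout the order was Apoe, Ttr, Cp, Apob, Fgg, Trf, Fgb, Fga, Apoh and Alb. Apob and Fgg (10.06 ± 0.37 and 9.81 ± 0.30, SD, n = 5), Trf and Fgb (8.48 ± 0.35 and 8.46 ± 0.12) and Fga and Apoh (6.37 ± 0.44 and 6.28 ± 0.90) did not differ beyond their spread.

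Most hepatocyte markers were near 0, and 3 were not. Of 15 defining hepatocyte markers, 11 stayed under x of 10 in all 9 libraries. Tat, Cyp7a1 and Cyp1a2, liver enzymes of tyrosine, bile acid and drug metabolism, were at 0 throughout, and Cps1, the entry enzyme of the urea cycle, did not exceed x of 1.03. The 12 markers below the filter summed to x of 2.61, 4.31, 2.93 and 41.1 in wild types 1 to 4 and of 12.9, 2.7, 17.1, 20.7 and 15.6 in knockouts 1 to 5. Wild type 4 stood apart. It alone held Serpina3k at 3.84 and the major urinary protein genes Mup3 and Mup20 at 2.61 and 2.35 on the log2 scale, against at most 0.07, 0.03 and 0.02 in the other 8 libraries. Genes of the Mup and Serpina families have near-identical copies, so reads of single members are uncertain. This library also had the most Alb of all. Without it the Alb difference was -1.89, and the other wild types still lay above every knockout. The 3 markers that passed the filter were Hpd, Serpina1a and Apoa2, at mean levels of 6.4 to 9.92. Hpd, a tyrosine-breakdown enzyme, rose by 1.68 (SE 0.19, limma adjusted p = 7.47e-06) and Apoa2, an HDL protein, by 1.45 (SE 0.20, limma adjusted p = 8.04e-05), while Serpina1a differed by -0.45 (SE 0.25, limma adjusted p = 0.261). Summed x of all 15 markers was 726 to 1030 in wild type and 1310 to 1950 in knockout libraries. Nearly all of it came from these 3 markers.

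**Figure D4:**
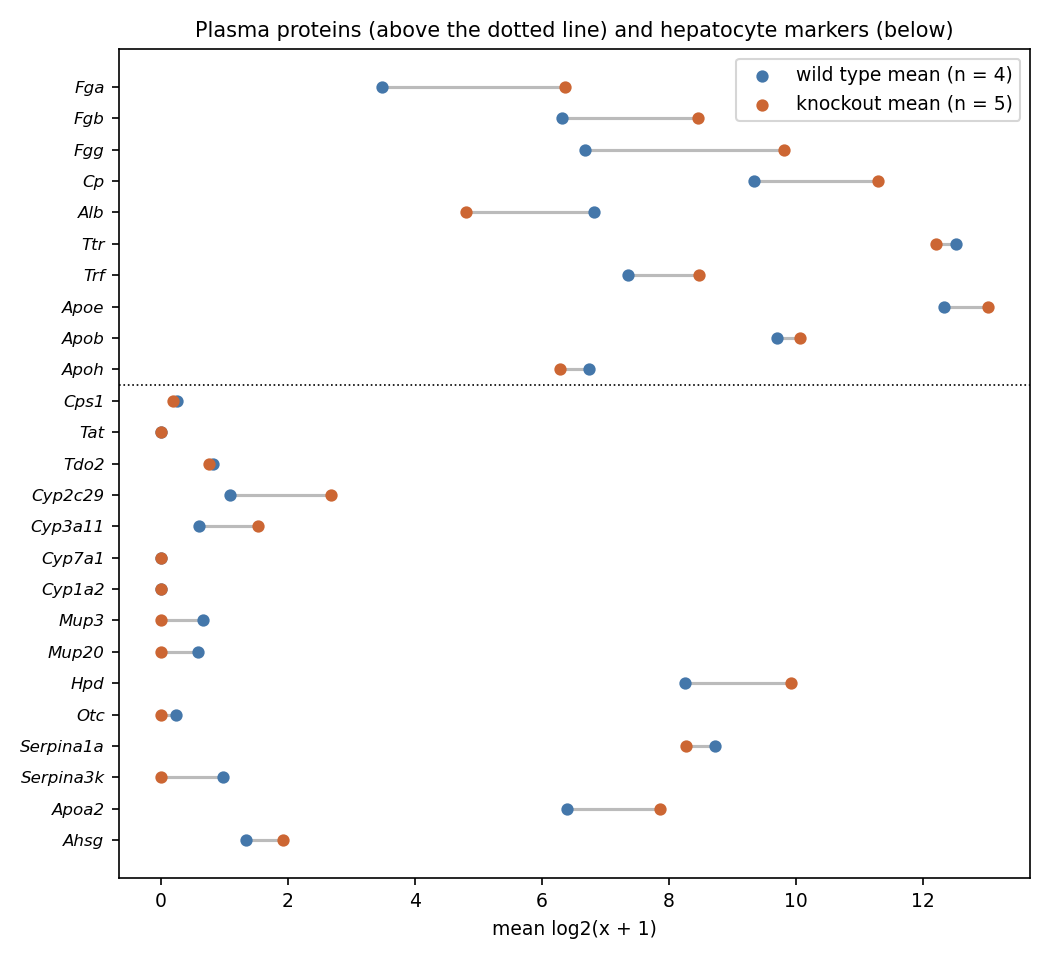
Mean log2(x + 1) in wild type (n = 4) and knockout (n = 5) libraries, joined by a line, for the 10 genes above the dotted line and 15 hepatocyte markers below it. Among the markers only Hpd, Serpina1a and Apoa2 reach the levels of the plasma protein genes, and Tat, Cyp7a1 and Cyp1a2 lie at 0.

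Markers of kidney cell types moved too, where 6.16% of all genes tested rose and 8.2% fell. Among 14 markers of the proximal tubule, 6 fell while none increased (median -0.62, against 0.0002 for all genes tested). The organic anion transporter Slc22a8 fell by 1.32 (SE 0.13) and its relative Slc22a6 fell by 1.21 (SE 0.12). Kap and Slc34a1, their most abundant transcripts, differed by -0.67 (limma adjusted p = 0.0604) and -0.28 (limma adjusted p = 0.173). The proximal list summed to x of 648000 to 847000 in wild type and 456000 to 491000 in knockout libraries. Most of this was Kap; the other 13 markers summed to 151000 to 187000 and 109000 to 129000. Of 12 distal nephron markers 7 rose and none fell (median 0.44). Umod and Slc12a1, the most abundant, did not pass the test, at -0.47 and 0.33. Slc4a1, Cldn16 and Calb1 rose by 0.96, 0.67 and 0.58 (limma adjusted p = 0.00289, 0.0133 and 0.0138). Atp6v1g3, Pvalb, Aqp2 and Slc12a3 overlapped between genotypes and lost their calls in 5, 7, 8 and 9 of 20 alternatives. Pvalb, Aqp2 and Slc12a3 were named after their values were seen. Summed x of the distal list overlapped, at 23600 to 41800 and 30100 to 40400. Of 8 endothelial markers 4 rose, among them Plvap by 1.03 (SE 0.16), Pecam1 by 0.83 (SE 0.15) and Ehd3 by 0.69 (SE 0.18). Ehd3 overlapped between genotypes and lost its call in 3 of 20 alternatives, and Kdr, named after its values were seen, differed by -0.11 (limma adjusted p = 0.752). The list had a summed x of 3600 to 5210 and 4560 to 8280. The part of these shifts in the differences of the plasma protein genes was not tested.

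Of 8 injured-tubule markers with values for a test, Krt18, Clu and Vim rose, by 1.35, 0.59 and 0.46, and none fell (median 0.46). Over all genes tested, 6.16% rose and 8.2% fell. Sox9 lay lower in every knockout than in any wild type, at 4.21 to 4.92 against 4.93 to 6.36, and just missed the test (-1.01, SE 0.34, limma adjusted p = 0.0513). It was named after its values were seen. The injury markers Havcr1, Lcn2 and Krt20 were below the filter. Spp1 and Clu, the most abundant of this list, differed by 0.46 (limma adjusted p = 0.0549) and 0.59 (limma adjusted p = 0.00623). Summed x of the list was 4640 to 6760 in wild type and 6770 to 9700 in knockout libraries. Of 9 macrophage markers none rose and Csf1r fell by 0.48 (SE 0.11, limma adjusted p = 0.00436). C1qa, next in level, differed by -0.10, and summed x overlapped at 1600 to 1890 and 1350 to 1770. Of 7 blood markers Pf4, a platelet gene, rose by 0.92. It overlapped between genotypes and lost its call in 3 of 20 alternatives, with an adjusted p of 0.12 with the Rn45s share in the model. Hba-a1 and Hbb-bs differed by 0.82 and 0.81 with an adjusted p of 0.145 and 0.11. Summed x of the blood list was 69300 to 185000 and 96700 to 410000, with the nearly equal Hbb-b1 and Hbb-bs both counted. The part of these markers in the results was not tested either.

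The other acute phase genes were mostly too low to test. Of 20 genes in this list 15 failed the filter, among them Saa1, Saa2 and Orm2, which were at 0 in all 9 libraries, and the renal acute phase gene Lcn2, which did not exceed x of 14.6. Serum amyloid A and orosomucoid are among the strongest acute phase genes of the mouse liver. How reads shared between related genes were handled is not given in the sources used here, so a value of 0 need not mean absence. Others that failed the filter reached higher levels in some knockout libraries, with no test. Orm1 ran from 0.00 to 1.07 in wild type and from 0.00 to 4.93 in knockout libraries. Orm3 ran from 0.00 to 0.09 and from 0.00 to 4.05, and Serpina3n from 0.07 to 1.65 and from 1.17 to 4.45. Each of them overlapped between genotypes. In contrast, Saa4, Crp and A2m ran up to 1.99, 1.02 and 2.31 in wild type and 0.01, 0.00 and 0.95 in the knockout. These genes were named after their values were seen. Of the 5 tested genes 1 rose and 1 fell (median 0.68), against 6.16% and 8.2% of all genes tested. Complement factor B (Cfb) fell by 1.31 (SE 0.12, limma adjusted p = 6.67e-07), and the endotoxin-binding protein Lbp rose by 0.98 (SE 0.29, limma adjusted p = 0.0294). Lbp lost its call in 9 of 20 alternatives. The metallothionein Mt2 and complement C3 differed by 0.43 (limma adjusted p = 0.129) and 0.68 (limma adjusted p = 0.181). The hemoglobin scavenger haptoglobin (Hp), named after its values were seen, differed by 1.64 (limma adjusted p = 0.239). Hp reached 7.33 in knockout 5 and 4.25 at most in any other library.

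Of 29 genes of interleukin-6 family signalling 23 were tested. Among them 4 rose and none fell (median -0.02), against 6.16% and 8.2% of all genes tested. The kinase gene Pim1 rose by 0.79 (SE 0.16, limma adjusted p = 0.00262), and the receptor chain Il6ra by 1.44 (SE 0.33, limma adjusted p = 0.00572). The transcription factors Cebpd and Cebpb, which act on acute phase promoters, rose by 0.97 (SE 0.21, limma adjusted p = 0.00418) and 0.79 (SE 0.18, limma adjusted p = 0.00567). Of these only Pim1 did not overlap between the genotypes, and Il6ra lost its call with the Rn45s share in the model (limma adjusted p = 0.0538). Genes named after their values were seen included Il6 itself, which was listed at 0 in all libraries. Stat3 differed by 0.06, its feedback inhibitor Socs3 by 0.24 and the shared receptor chain Il6st by -0.26, none of which passed the test.

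Among coagulation and fibrinolysis genes other than the fibrinogen chains, 26 of 33 were tested. Of these, 3 rose and 3 fell (median 0.12), against 6.16% and 8.2% of all genes tested. The anticoagulant protease protein C (Proc) fell by 1.08 (SE 0.13, limma adjusted p = 2.11e-05), from 10.90 to 9.82 in mean level. The plasmin inhibitor Serpinf2 fell by 0.58 (SE 0.10, limma adjusted p = 6.04e-04). Tissue plasminogen activator (Plat), which starts fibrin breakdown, rose by 0.96 (SE 0.18, limma adjusted p = 0.00122), and the factor XIII chain F13b by 0.47 (SE 0.09, limma adjusted p = 0.00219). The other calls, named after their values were seen, were Tfpi, an inhibitor of the initiating step, which rose by 0.91, and factor V (F5), which fell by 0.92. F5 overlapped between the genotypes and lost its call in 4 of 20 alternatives.

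Of 26 genes of iron and copper handling 22 were tested. Of these, 2 rose and 4 fell (median -0.12), against 6.16% and 8.2% of all genes tested. The transferrin receptor Tfrc, which takes up the product of Trf, fell by 1.02 (SE 0.20, limma adjusted p = 0.00213). The metal-binding metallothionein Mt1 rose by 0.72 (SE 0.15, limma adjusted p = 0.00265). The iron importer Slc11a2 fell by 0.44 (SE 0.11, limma adjusted p = 0.00823), and the receptor partner Hfe rose by 0.80 (SE 0.20, limma adjusted p = 0.00944), a call lost with the Rn45s share in the model. Ftl1, the ferritin light chain, and the lysosomal channel gene Mcoln1 fell by 0.48 and 0.66. Their calls were lost in 5 and 12 of 20 alternatives, and both were named after their values were seen.

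Of 30 lipoprotein genes and receptors beyond Apoe, Apob and Apoh, 23 were tested. Of these, 2 rose and 3 fell (median -0.09), against 6.16% and 8.2% of all genes tested. Lipoprotein lipase (Lpl), which releases fatty acids from circulating lipoproteins, fell by 1.46 (SE 0.13, limma adjusted p = 2.90e-07). Apoa2 and clusterin (Clu) rose, as given above. The triglyceride transfer protein Mttp, which loads lipid onto apolipoprotein B, fell by 0.83 (SE 0.19, limma adjusted p = 0.00619). Apoa4, named after its values were seen, fell by 1.27 (SE 0.30, limma adjusted p = 0.00777). Clu lost its call without a trend in the prior variance, at an adjusted p of 0.0522.

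Other plasma proteins of hepatocyte origin did not share 1 direction. Of 25 such genes 16 were tested, 2 rose and 4 fell (median -0.13), against 6.16% and 8.2% of all genes tested. Histidine-rich glycoprotein (Hrg) was at 5.35, 5.76, 5.4 and 5.10 in wild types 1 to 4 and at 2.42, 2.18, 2.01, 0.29 and 0.00 in knockouts 1 to 5. The knockout values are a few reads at most. Hrg is among the 4 counted as fallen, but it passed the filter through the 4 wild types alone, where it is high, and could not be tested with any of them left out, so no test is given for it. The protease inhibitor Pzp fell by 2.07 (SE 0.15, limma adjusted p = 4.23e-08), from a wild-type mean of 9.46. Serpina1b, an alpha-1-antitrypsin with near-identical copies whose reads are uncertain, fell by 0.95 (SE 0.20, limma adjusted p = 0.00302). The vitamin D-binding protein Gc, another member of the albumin family, rose by 0.97 (SE 0.18, limma adjusted p = 0.00119). Kng2 and Azgp1, named after their values were seen, rose by 0.66 and fell by 0.51, and Azgp1 lost its call in 13 of 20 alternatives.

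Of 22 transcription factors known from liver promoters 16 were tested. Of these, 2 rose and 4 fell (median -0.03), against 6.16% and 8.2% of all genes tested. The D-box activators Dbp and Tef fell by 1.51 (SE 0.25, limma adjusted p = 4.06e-04) and 0.60 (SE 0.11, limma adjusted p = 0.00111). Nfil3, which binds the same element and represses, rose by 2.58 (SE 0.35, limma adjusted p = 5.60e-05), from a mean of 5.73 to 8.32. Hlf, the third activator of the family, differed by 0.11 (limma adjusted p = 0.478). The bile acid receptor Nr1h4 fell by 0.57 (SE 0.15, limma adjusted p = 0.0167), and the liver-enriched nuclear receptor Hnf4a differed by -0.31 (limma adjusted p = 0.055). The other calls were Cebpa, higher by 0.54, and the nuclear receptor Rxra, which fell by 0.35. The calls of Nr1h4, Cebpa and Rxra were lost in 5, 5 and 7 of 20 alternatives. Hlf, Hnf4a, Cebpa and Rxra were named after their values were seen.

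**Figure D5:**
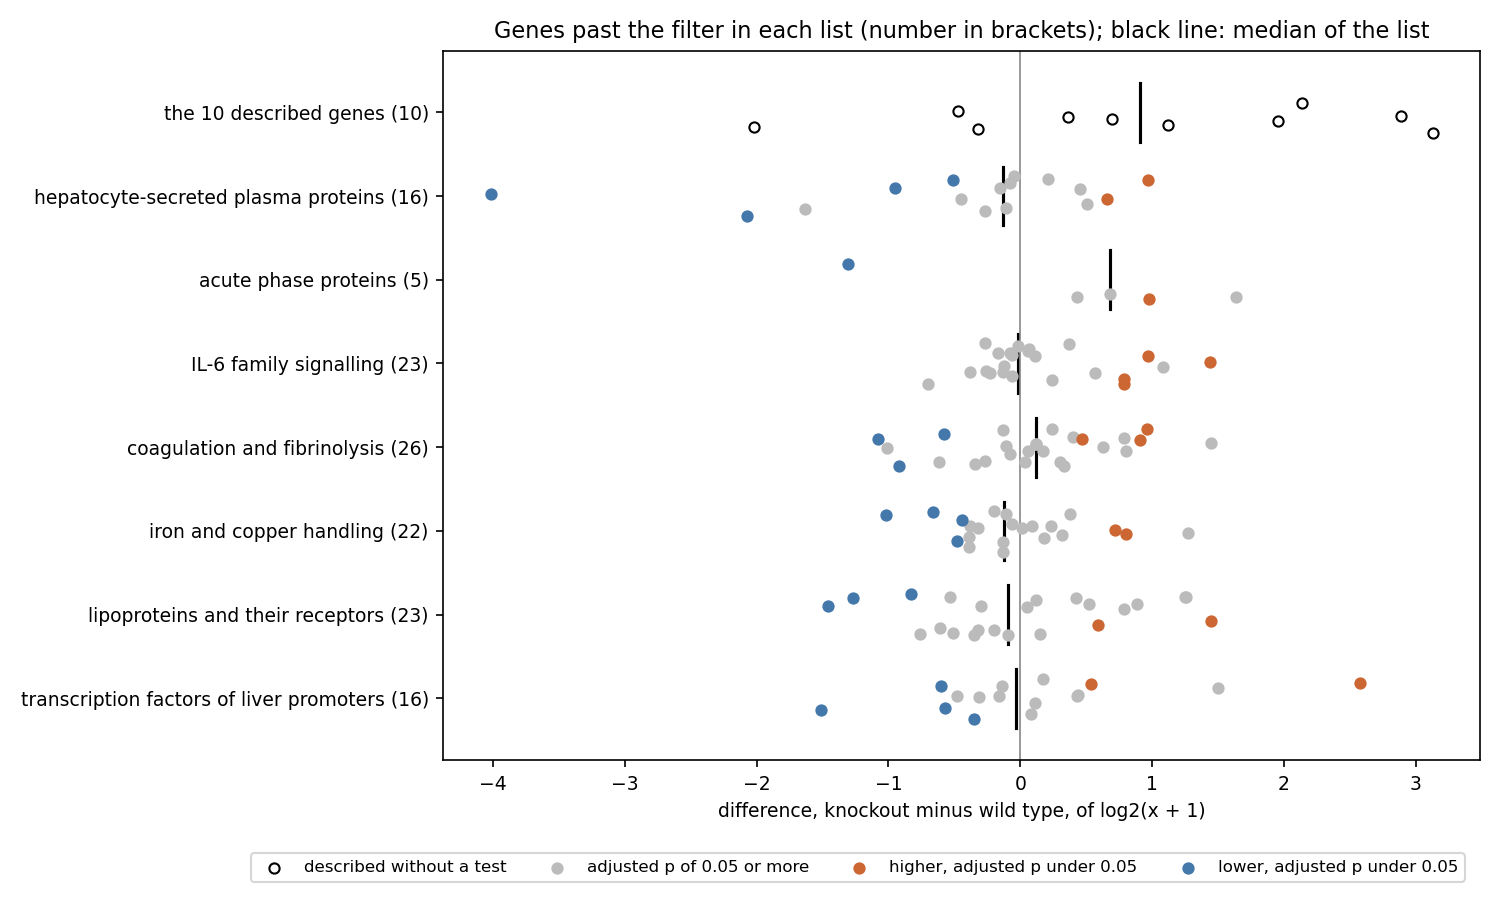
Difference of log2(x + 1), knockout minus wild type, for the 10 described genes (open circles, no test) and each tested gene of 7 lists of related genes, with a black line at the median. The point of Hrg is drawn as called lower, although no test is given for it. The 7 medians lie between -0.13 and 0.68, and calls in both directions occur in all of these lists except interleukin-6 family signalling, where 4 genes rose and none fell.

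The variation of the 3 fibrinogen chains among libraries of 1 genotype gave no correlation that passed the test. On deviations from genotype means over 9 libraries, r was 0.415 for Fga with Fgg, 0.555 for Fgb with Fgg and 0.0918 for Fga with Fgb (exact permutation p = 0.332, 0.332 and 0.926, adjusted over 45 pairs 0.622, 0.622 and 1). The corresponding rho was 0.0667, -0.333 and -0.2 (exact p = 0.946, 0.474 and 0.699, adjusted 0.967, 0.85 and 0.85). Without the libraries farthest from the median, r was -0.803, 0.397 and -0.11, so the value for Fga with Fgg rested on wild type 1 and knockout 1. Fga passed the filter only through the knockouts. Its x was 7.54, 9.73 and 8.51 in wild types 2 to 4, so its deviations there are imprecise. With 9 libraries a correlation can also go unseen, so these values do not show that the chains vary separately. The genes closest to the mean of the chains in these deviations were Ap2m1, a clathrin adaptor subunit, with r of 0.97, and the mitochondrial pyrophosphatase Ppa2 with 0.965. They were followed by the ferritin heavy chain Fth1 (0.964), the complex I subunit Ndufs5 (0.963) and the co-chaperone Dnajc12 (0.956). These r are a description over 9 libraries that share depth and composition, picked from all genes tested. None of these 5 genes passed the test between genotypes, with differences of -0.06, -0.19, -0.39, 0.06 and -0.01.

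Among the genes named, exons of Pzp, Afm, Cfb, Mt2, Pim1, Il6ra, Stat3, Cebpb, Cebpd, F5, Slc11a2, Ftl1, Apoa4, Mttp, Cebpa, Dbp, Tef, Slc34a1, Umod, Spp1, Csf1r, Pde7a and Sfrp2 overlap those of another annotated gene. Since the authors' handling of strand and shared reads is not given in the sources used here, their reads are uncertain.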

How the data were processed

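Kidney RNA was extracted with Trizol and made into libraries with the Lexogen QuantSeq 3′ kit, per the labels' protocols. Bowtie2, bedtools and the mouse build mm10 are listed, without versions, per the submitters' processing notes. The deposited values are log2(x + 1) per gene symbol and library, with 3 decimals. How they were normalized, with which annotation and strand setting, is not given in the sources used here, nor is the raw depth. Since such values are not counts, the test was that of limma 3.58.1 under R 4.3.3 (genotype as the single term, prior variance with a trend, two-sided, Benjamini-Hochberg adjustment over 13481 genes, threshold 0.05). Genes entered the test when 4 or more libraries had x of 10 or higher. The fit was tested on simulated data. Fold changes are on the log2(x + 1) scale and understate those of low genes. Exon overlaps and positions came from GENCODE on GRCm38, promoters from RefSeq.

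The members and all gene lists were chosen with earlier results of these data known. Named were all members, up to 4 genes of each list with the smallest adjusted p, the 2 most abundant markers of a cell type, the nearest tested neighbours of 3 loci and the 5 genes most like the fibrinogen mean. Other genes were named after their values were seen. Alternatives covered the filter, pseudocount, scaling, prior variance, Rn45s share, replicate number as a block, and each library left out. Some genes of the lists are not reported here.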

Additional observations from a re-analysis of the deposited data

Results flagged for a closer look

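Apoe in wild type 1, at 12.1 on the log2(x + 1) scale, lay far below the other wild types at 12.42, 12.43 and 12.40. Its gap to the nearest of them was 0.922 of the range of the 4 libraries, above Dixon's 95% critical value. Of 20 groups examined, 10 genes in each of 2 genotypes, this was the only such library, and chance gives about 1 in 20.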

How the results depend on the processing

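The differences of the members, given as a description since the genes were chosen on this contrast, were computed under 20 alternatives. The alternative without wild type 2 and knockout 4, the libraries richest in globin, was added after the data were seen. The differences ranged from 2.51 to 3.2 for Fga, 2.01 to 2.29 for Fgb, 2.97 to 3.36 for Fgg, 1.8 to 2.1 for Cp, -2.22 to -1.87 for Alb, 0.89 to 1.29 for Trf and 0.61 to 0.84 for Apoe. The overlapping genes ranged from -0.46 to -0.05 for Ttr, -0.04 to 0.68 for Apob and -0.79 to -0.21 for Apoh.

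Over all genes, 1222 were called with the Rn45s share in the model against 1937 without it, and 1416 to 2264 with 1 library left out. The cause was not tested. The fraction of calls higher in the knockout was 42.9%, but 58.1% under upper-quartile scaling and 64.7% when scaled to the total without Rn45s, which moved the median of all genes from 0.0002 to 0.1047. Replicate numbers are shared by the labels, but same-numbered libraries deviated together with an r of 0.151, 0.001, -0.007 and 0.041, so the numbers were not taken as pairs. With the replicate block 1739 genes were called, against 1634 in the same 8 libraries without it.

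Of 57 called list genes other than members, 35 were called in all 20 alternatives. The 57 include Hrg, for which no test is given above. Several counts depended on the setting. Hepatocyte-secreted proteins higher ranged from 1 to 4 and lower from 2 to 5, acute phase genes higher from 0 to 2, iron and copper genes higher from 1 to 2 and lower from 2 to 6, and lipoprotein genes higher from 1 to 2 and lower from 3 to 7. Liver-promoter factors higher ranged from 1 to 3 and lower from 2 to 5, proximal markers lower from 6 to 10, distal markers higher from 2 to 7, endothelial markers higher from 2 to 5 and blood markers higher from 0 to 6. Adjusted totals show no raw depth, so the precision of genes at a few reads, such as Hrg in the knockout, is not known.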
